A study of Mus musculus with 8 samples.

Results

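Collagens, laminins, the proteins that join them and the enzymes that modify collagen were followed in organoids of mouse hindstomach epithelium with and without active YAP. Members were taken by gene symbol: every row of the count table whose symbol names a collagen chain, a laminin chain, a nidogen, perlecan (Hspg2), agrin (Agrn), a collagen prolyl or lysyl hydroxylase, a lysyl oxidase or peroxidasin (Pxdn). This gave 75 of 56691 rows. They comprise 44 collagen chains, 11 laminin chains, 4 linking proteins and proteoglycans and 16 enzymes or enzyme partners. The hindstomach is the glandular part of the stomach, and the organoids are 3-dimensional cultures grown from epithelium taken at embryonic day 18.5. They were kept for 5 days in growth medium and then for 7 days in differentiation medium. The control group, Ctrl, has the genotype Shh-Cre (4 libraries) and the other group has the genotype Shh-Cre;YAP5SA (4 libraries). Both groups thus carry Cre under the control of Shh, a gene of the endodermal epithelium, and YAP5SA is a constitutively active mutant of YAP, the transcriptional coactivator that Hippo signalling restrains by phosphorylation. The labels name no embryo, litter or culture day, so the p-values rest on the spread among these 8 samples alone, and that spread may be technical.

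Epithelia stand on a basement membrane, a thin sheet built from a laminin network and a collagen IV network that nidogens and heparan sulfate proteoglycans hold together. Collagen IV is a trimer drawn from 6 chains whose genes lie in head-to-head pairs, Col4a1 with Col4a2, Col4a3 with Col4a4 and Col4a5 with Col4a6. In the endoplasmic reticulum prolyl and lysyl hydroxylases modify collagen chains, and outside the cell lysyl oxidases and peroxidasin crosslink the finished network. Fibrillar collagens such as collagens I and III are made mainly by mesenchymal cells and form the fibres of the tissue beneath.

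All 6 collagen IV genes were called higher in YAP5SA by the test given below, beside 33.1% of all genes tested. Since the collagen IV genes lie in head-to-head pairs, the sequences around their start sites are shown. RefSeq on GRCm38.p6 gave a window of 250 bases before to 50 bases after the start for 5 of the 6 (all but Col4a3). The submitters' notes name the build mm9 for their own processing, so these coordinates belong to the RefSeq table alone. The start sites of Col4a1 and Col4a2 lie 21 bases apart on opposite strands, and their windows have 78 bases in common, which are in capitals.
Col4a1 (chr8:11312777-11313076, minus strand): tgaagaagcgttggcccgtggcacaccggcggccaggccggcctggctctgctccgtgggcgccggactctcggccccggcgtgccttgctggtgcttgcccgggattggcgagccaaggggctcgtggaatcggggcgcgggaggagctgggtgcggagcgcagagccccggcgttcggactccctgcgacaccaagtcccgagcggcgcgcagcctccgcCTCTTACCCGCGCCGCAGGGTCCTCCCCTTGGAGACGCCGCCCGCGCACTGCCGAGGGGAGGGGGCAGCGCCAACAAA
Col4a2 (chr8:11312555-11312854, plus strand): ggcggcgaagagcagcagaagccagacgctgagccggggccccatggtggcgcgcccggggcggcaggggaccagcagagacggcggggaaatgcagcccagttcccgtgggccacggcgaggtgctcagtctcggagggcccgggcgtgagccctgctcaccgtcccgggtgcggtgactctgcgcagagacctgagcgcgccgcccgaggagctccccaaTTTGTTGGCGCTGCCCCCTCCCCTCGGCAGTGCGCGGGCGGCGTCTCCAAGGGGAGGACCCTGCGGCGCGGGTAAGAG
The windows of the other chains share no bases, the start sites of Col4a5 and Col4a6 being 1343 bases apart. In these windows capitals mark CATTCC, the core of the motif bound by the TEAD partners of YAP, on either strand.
Col4a4 (chr1:82586800-82587099, minus strand): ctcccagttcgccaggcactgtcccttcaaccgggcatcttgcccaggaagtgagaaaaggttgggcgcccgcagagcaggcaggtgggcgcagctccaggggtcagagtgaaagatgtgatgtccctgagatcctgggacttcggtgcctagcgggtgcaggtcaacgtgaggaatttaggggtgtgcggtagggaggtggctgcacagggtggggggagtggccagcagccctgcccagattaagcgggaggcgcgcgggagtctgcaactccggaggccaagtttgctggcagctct
Col4a5 (chrX:141475169-141475468, plus strand): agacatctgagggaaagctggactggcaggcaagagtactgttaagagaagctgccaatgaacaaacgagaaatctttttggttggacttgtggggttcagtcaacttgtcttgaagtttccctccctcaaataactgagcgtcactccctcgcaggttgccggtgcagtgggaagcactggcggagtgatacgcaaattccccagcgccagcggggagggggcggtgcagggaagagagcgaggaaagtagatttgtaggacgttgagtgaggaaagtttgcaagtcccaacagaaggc
Col4a6 (chrX:141474027-141474326, minus strand): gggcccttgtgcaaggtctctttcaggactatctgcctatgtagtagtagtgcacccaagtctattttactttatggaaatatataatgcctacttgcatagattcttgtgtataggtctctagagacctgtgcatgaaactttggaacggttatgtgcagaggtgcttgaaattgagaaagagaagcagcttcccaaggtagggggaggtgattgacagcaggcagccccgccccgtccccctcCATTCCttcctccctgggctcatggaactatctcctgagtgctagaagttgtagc

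Of these 5 windows, CATTCC occurred on either strand in 1, that of Col4a6. It occurred in 14.7% of all 32851 RefSeq windows of the same 300 bases and in 9 of the 58 windows of 52 matrix genes. The AP-1 motif TGANTCA was in 0 of the 5 collagen IV windows, in 1 of the 58 and in 7.81% of all windows. The GC box GGGCGG was in 4 of the 5 (all but Col4a4), in 38 of the 58 (65.5%) and in 35.7% of all windows. The GC box of Col4a1 lies in the bases it shares with Col4a2, so that site counts for both windows. CCAAT was in 3 of the 5 (Col4a1, Col4a2 and Col4a5), in 19 of the 58 and in 37.4% of all windows. Each motif was searched on both strands and matches of different motifs may overlap.

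Total counts were 17387372 to 25841256 per library. Genes were tested with edgeR's quasi-likelihood test on the whole table, with Benjamini-Hochberg adjustment over the 13812 genes tested, and an adjusted p under 0.05 is a call. Levels are CPM, a gene's counts scaled to a common total per library, with totals adjusted by TMM, a factor that offsets differences in RNA make-up. The groups also differ completely in sex-linked transcripts: Xist had 8436 to 12237 counts in Ctrl and 0 to 8 in YAP5SA, and 4 Y-linked genes had 0 counts in Ctrl and 880 to 3854 in YAP5SA. Genotype and these transcripts cannot be told apart. Epithelial markers were counted in both groups: all 10 of the list were tested and summed to 19479 to 20759 CPM in Ctrl and 13176 to 15494 CPM in YAP5SA. In that list 5 genes were higher in YAP5SA, 4 lower and 1 not called, with log2 fold changes from -1.17 to 4.03. The share called was 90.0%, beside 64.5% of all genes tested.

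Other cell types that make matrix were looked for by their markers. Of 13 fibroblast and mesenchymal markers only Vim passed the filter on low counts, and Lum, Dpt, Barx1 and Tcf21 had 0 counts in every library. The 6 defining markers Pdgfra, Pdgfrb, Dcn, Lum, Twist1 and Prrx1 summed to 0.113 to 0.375 CPM in Ctrl and to 0.692 to 0.998 CPM in YAP5SA. Vim, an intermediate filament gene, averaged 0.739 ± 0.572 CPM over the Ctrl libraries against 25.6 ± 2.10 CPM over YAP5SA (SD, n = 4 each), and the 13 markers summed to 0.828 to 1.62 and 24.4 to 29.0 CPM. Smooth muscle and pericyte markers, 0 of 7 tested, summed to 0.710 to 1.12 and 0.998 to 1.30 CPM. Endothelial markers, 0 of 8 tested, summed to 0.670 to 1.80 and 0.213 to 0.729 CPM, with Erg and Cldn5 at 0 counts. Neural and glial markers, 3 of 7 tested, summed to 4.91 to 6.14 CPM in Ctrl and 2.18 to 3.33 CPM in YAP5SA, with Sox10 and Elavl4 at 0 counts. Of 7 immune markers 2 were tested, Cd68 and Csf1r, and both were higher in YAP5SA, while of the untested ones Itgam had 5 counts over the Ctrl and 53 over the YAP5SA libraries, Ptprc had 15 and 3, Cd3e had 4 and 0, Cd79a had 1 and 1, and Adgre1 had 0 in both. The immune list summed to 8.62 to 18.2 CPM in Ctrl and 67.4 to 73.4 CPM in YAP5SA. Of 4 mesothelial markers Msln was lower in YAP5SA (4015 ± 307 against 3005 ± 149 CPM), while Upk3b (23.4 ± 11 against 101 ± 13.7 CPM) and Wt1 (0 against 88 counts) were higher. The mesothelial list summed to 3647 to 4305 CPM in Ctrl and 2975 to 3283 CPM in YAP5SA. The part of Vim, Csf1r, Cd68, Itgam, Upk3b and Wt1 in the results below was not tested. In bulk libraries fewer cells of a type and less RNA per cell cannot be told apart.

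YAP5SA was set against Ctrl to ask which matrix transcripts differ in epithelium with active YAP after differentiation. Of the 75 genes, 39 passed the filter on low counts, and 29 of them were higher in YAP5SA, 4 lower and 6 not called. Thus 84.6% of the tested matrix genes were called, beside 64.5% of all genes tested. Calls in the higher direction took in 33.1% of all genes, and calls in the lower direction 31.3%. Calls more than 2-fold higher were 20 of the 39 matrix genes (14.0% of all genes) and calls more than 2-fold lower were 2 (11.5% of all genes). The groups did not overlap for 31 of the 39, beside 58.7% of all genes. The median log2 fold change of the tested members was 1.04, against 0.02 for all genes tested, and was the same 1.04 with Lamc3, which has 0 Ctrl counts, set at its bound. Members that were high in 1 group only could pass the filter through that group, so these shares do not describe all 75.

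Scaling by library size in place of TMM moved the median of all genes from 0.02 to 0.19, called 5742 genes higher and 3201 lower in place of 4577 and 4330 (64.2% of calls higher in place of 51.4%), and gave 31 matrix genes higher and 3 lower. All fold changes here are relative to the TMM scale.

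**Figure D1:**
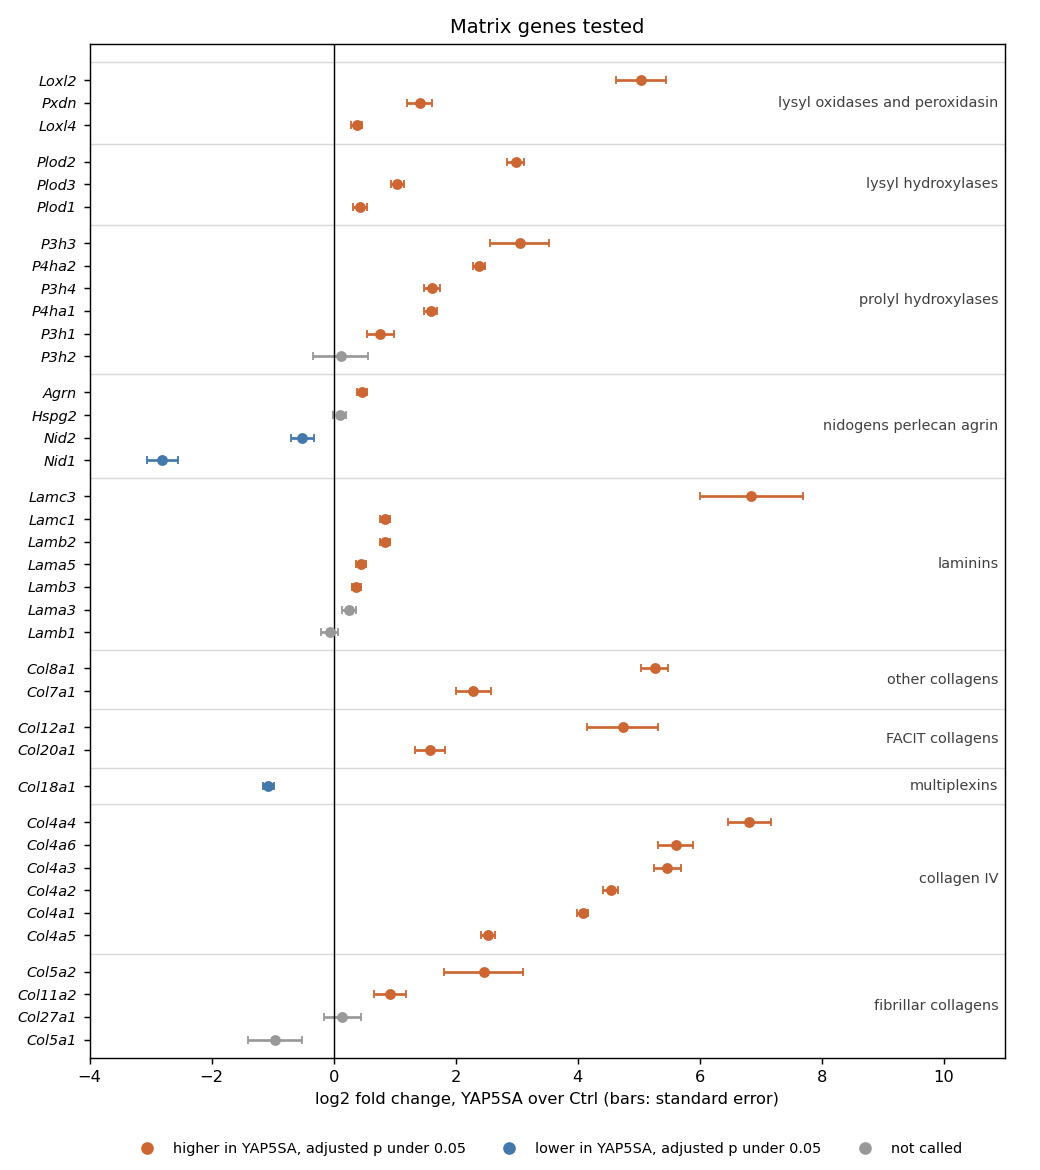
Log2 fold changes (x axis, YAP5SA over Ctrl, bars are standard errors) of 38 of the 39 matrix genes tested, grouped by role on the y axis. Orange points are called higher (29), blue points lower (3) and grey points are not called (6). All 6 collagen IV chains lie at 2.53 or above, while the laminins plotted other than Lamc3 lie between -0.07 and 0.84. The point of Lamc3, with 0 Ctrl counts, depends on the prior count of the fit.

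Collagen IV made up a larger part of the matrix transcripts in YAP5SA than in Ctrl. The 6 chains summed to 101 ± 15.1 CPM over the Ctrl libraries against 1464 ± 65.7 CPM over YAP5SA (SD, n = 4 each). They made up 3.62% to 4.96% of the summed matrix CPM among the Ctrl libraries against 31.4% to 32.5% among those of YAP5SA. Without them the matrix genes summed to 2341 ± 38.1 CPM in Ctrl and 3113 ± 132 CPM in YAP5SA. The matrix genes together were 0.223% to 0.238% of all counts in Ctrl and 0.448% to 0.510% in YAP5SA.

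Col4a1 and Col4a2, whose chains form the most widespread collagen IV trimer, share the start region printed above. Col4a1 was at 26.4, 31.8, 25.3 and 25.6 CPM in Ctrl replicates 1 to 4 and at 446, 477, 469 and 454 CPM in YAP5SA replicates 1 to 4. Every YAP5SA library lay far above every Ctrl library, and the log2 fold change was 4.08 (SE 0.09, edgeR adjusted p = 5.87e-13). Col4a2 was at 25.5, 38.9, 30.3 and 26.4 CPM in Ctrl and at 750.0, 719.8, 681 and 665 CPM in YAP5SA. Its value of 4.54 on the log2 scale (SE 0.13, edgeR adjusted p = 3.58e-12) came with no overlap either. Per kb of the longest GENCODE M21 transcript, the ratio of Col4a2 to Col4a1 was 0.988 to 1.25 among the Ctrl libraries against 1.49 to 1.72 among those of YAP5SA. Both genes of the pair rose, and the ranges of their ratio do not overlap between the groups.

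Col4a5 and Col4a6 lie on the X chromosome and encode chains of epithelial and smooth muscle basement membranes. Col4a5 was at 36.0, 49.6, 47.1 and 38.6 CPM in Ctrl and at 267, 257, 257 and 211 CPM in YAP5SA, a difference of 2.53 on the log2 scale (SE 0.11, edgeR adjusted p = 2.45e-10). It was the most counted collagen IV gene of Ctrl, and its fold change was the smallest of the 6. Col4a6 was at 0.113, 0.237, 0.125 and 0.335 CPM in Ctrl and at 10.8, 11.2, 9.58 and 7.88 CPM in YAP5SA, a log2 fold change of 5.61 (SE 0.29). Its Ctrl libraries held 2 to 6 counts and its YAP5SA libraries 173 to 239. Both genes were separated completely between the groups, with YAP5SA replicate 4 the lowest of its group for each. Since the groups also differ in Xist, the X-linked genes (by RefSeq on GRCm38.p6) are given beside them. Of 448 X-linked genes tested, 194 were higher, 97 lower and 157 not called, with a median log2 fold change of 0.24. The share called was 65.0%, beside 64.5% of all genes tested. Over all genes tested 33.1% were higher and 31.3% lower, with a median of 0.02. The calls of X-linked genes thus leaned toward higher more than those of all genes. The part of this lean in Col4a5 and Col4a6 was not tested.

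Col4a3 and Col4a4 encode chains best known from the kidney glomerulus and lung. Col4a3 was at 0.225, 0.769, 0.708 and 0.391 CPM in Ctrl and at 25.4, 24.7, 24.5 and 20.8 CPM in YAP5SA, a log2 fold change of 5.47 (SE 0.22). Col4a4 was at 0.0564, 0.355, 0 and 0.223 CPM in Ctrl and at 17.7, 18.3, 16.8 and 15.3 CPM in YAP5SA, a log2 fold change of 6.82 (SE 0.35). The Ctrl values of Col4a4 rest on 11 counts over the group, and without Ctrl replicate 2, which holds 6 of them, the log2 fold change was 7.54. Both were nearly missing from Ctrl and present in every YAP5SA library.

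**Figure D2:**
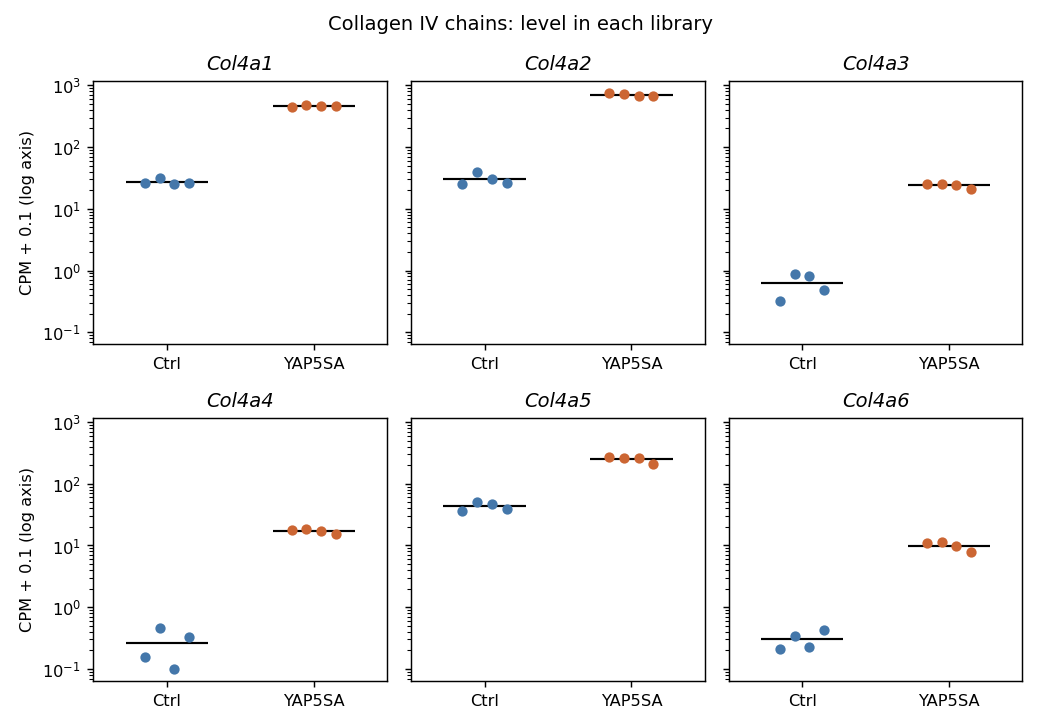
Level of each collagen IV gene in each library (y axis, CPM + 0.1 on a log axis), with Ctrl in blue and YAP5SA in orange and a line at the mean of each group of 4. The groups are apart for all 6 genes, beside 58.7% of all genes tested. Col4a3, Col4a4 and Col4a6 stay under 1 CPM in every Ctrl library.

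Set against each other per kb, the chains differed widely in level. In Ctrl, Col4a5 was at 6.55 ± 1.0, Col4a2 at 4.69 ± 0.952 and Col4a1 at 4.13 ± 0.464 CPM per kb (SD, n = 4), and the last 2 did not differ beyond their spread. In YAP5SA the order was Col4a2 (109 ± 5.95), Col4a1 (69.8 ± 2.07) and Col4a5 (37.9 ± 3.88 CPM per kb). Col4a3 (2.79 ± 0.240), Col4a4 (1.68 ± 0.130) and Col4a6 (1.49 ± 0.227 CPM per kb) were far below those 3 in YAP5SA too. Col4a5 made up 42.3% ± 2.24 of the summed per-kb level in Ctrl and 17% ± 1.10 in YAP5SA, and Col4a2 made up 30.2% ± 1.55 and 49.0% ± 1.15. These orders rest on the longest transcript: with the median annotated transcript length Col4a1 led in Ctrl (50.3%), Col4a5 was at 10.4% there and 3.26% in YAP5SA, and the share of Col4a1 went down to 46.0% in YAP5SA, whereas with the longest it went from 26.8% to 31.4%.

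Most other collagens were low in level. Col8a1, which encodes a short-chain collagen of sheet-like networks, rose from 2.87, 1.24, 1.67 and 1.23 CPM in Ctrl to 82.6, 72.4, 58.7 and 55.9 CPM in YAP5SA. That is 5.26 on the log2 scale (SE 0.22, edgeR adjusted p = 1.13e-10), with no overlap. Col8a2, the partner chain, had 1 count in Ctrl and 37 in YAP5SA and was not tested (ratio of scaled counts 34.5, exact 95% counting interval 5.83 to 1401). Col7a1, the collagen of anchoring fibrils, rose from 1.0 ± 0.404 to 4.87 ± 0.752 CPM (log2 fold change 2.29, SE 0.28). The FACIT genes Col12a1 and Col20a1, whose products sit on the surface of other collagen fibrils, rose by 4.74 (SE 0.58) and 1.58 (SE 0.24) on the log2 scale. Both were low, at 2.27 ± 0.659 and 5.42 ± 1.18 CPM in YAP5SA. The fold change of Col12a1 rests on 6 counts over the Ctrl libraries, against 188 over those of YAP5SA. Col20a1 had 139 and 447.

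Col18a1 went the other way. It encodes a basement membrane collagen that carries heparan sulfate and holds the fragment endostatin. It was at 117, 104, 111 and 120.0 CPM in Ctrl and at 56.7, 53.4, 59.0 and 45.9 CPM in YAP5SA, so every YAP5SA library lay under every Ctrl library. It fell by 1.07 on the log2 scale (SE 0.09, edgeR adjusted p = 1.24e-07). In Ctrl its mean of 113 ± 7.24 CPM stood beside 101 ± 15.1 CPM for the 6 collagen IV genes together, and in YAP5SA its mean of 53.7 ± 5.70 CPM stood beside 1464 ± 65.7 CPM. Its relative Col15a1 had 5 counts in Ctrl and 32 in YAP5SA and was not tested.

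Fibrillar collagens were low, and the genes of collagens I and III were close to the limit of detection. Of 11 genes 4 were tested, and the 11 summed to 3.75 to 6.92 CPM in Ctrl and 5.87 to 8.02 CPM in YAP5SA. Col1a1 had 9 counts over the Ctrl and 4 over the YAP5SA libraries, Col3a1 had 1 and 0, and Col1a2 had 0 in every library. A library with 0 counts allows up to 3, which is 0.116 to 0.173 CPM on library totals without TMM, a limit for counting error only. Among the tested genes Col11a2 rose by 0.92 (SE 0.27) and Col5a2 by 2.46 (SE 0.65), the latter at 0.830 ± 0.396 CPM in YAP5SA and at 3.46 without Ctrl replicate 1. Col5a1 was at -0.97 (edgeR adjusted p = 0.0699) and Col27a1 at 0.14 (edgeR adjusted p = 0.705), neither called. Without Ctrl replicate 2 (-1.17, edgeR adjusted p = 0.0359) or YAP5SA replicate 4 (-1.43, edgeR adjusted p = 0.0150) Col5a1 was called lower. Col11a1 had 0 counts in Ctrl and 52 in YAP5SA, which with a floor of 3 counts over the group is at least 16.2-fold higher.

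In all 36 members were not tested, 6 of them with 0 counts in every library (Col1a2, Col6a3, Col6a4, Col6a6, Col9a1 and Col19a1). The other 30 had at most 26 counts in a library. Col26a1 matched Col11a1 in its totals, 0 and 52 counts. Col28a1 had 27 counts in Ctrl and 3 in YAP5SA (ratio 0.104, exact 95% counting interval 0.0201 to 0.337). Col17a1, the transmembrane collagen of hemidesmosomes, had 8 and 13. The collagen VI genes Col6a1 and Col6a2, products mainly of mesenchymal cells, had 7 and 1 counts in Ctrl and 10 and 3 in YAP5SA.

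Laminins are trimers of an alpha, a beta and a gamma chain, and of the 7 tested genes described here 5 were higher in YAP5SA and 2 not called. Beside them, 33.1% of all genes tested were called higher and 31.3% lower. Apart from Lamc3 the log2 fold changes of these laminin genes, -0.07 to 0.84, all lay below those of the collagen IV genes.

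The alpha chains were mainly 2. Lama5, the alpha chain of most adult basement membranes, was at 223, 249, 219 and 257 CPM in Ctrl and at 315, 289.9, 334 and 353 CPM in YAP5SA. It rose by 0.45 on the log2 scale (SE 0.08, edgeR adjusted p = 2.85e-04), with no overlap between the groups. Lama3, whose product belongs to the laminin that anchors epithelia at hemidesmosomes, was at 103, 109, 109 and 89.5 CPM in Ctrl and at 131, 128, 139 and 92.6 CPM in YAP5SA. Its value of 0.25 on the log2 scale (edgeR adjusted p = 0.0654) was not called, and YAP5SA replicate 4 lay among the Ctrl libraries. Lama3 was called higher without that library (0.36, edgeR adjusted p = 0.00192), with library size scaling (0.43, edgeR adjusted p = 0.00520), with upper quartile scaling (0.31, edgeR adjusted p = 0.0356), without the filter on low counts (0.25, edgeR adjusted p = 0.0154) and with the replicate block (0.24, edgeR adjusted p = 0.0100). Lama1, Lama2 and Lama4 had 0, 4 and 21 counts in Ctrl and 2, 5 and 31 in YAP5SA and were not tested.

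Among the beta chains, Lamb3 pairs with Lama3 in the anchoring laminin, and Lamb1 and Lamb2 serve the broader basement membrane laminins. Lamb3 was at 195, 215, 217 and 201 CPM in Ctrl and at 268, 265, 281 and 258 CPM in YAP5SA, a rise of 0.37 on the log2 scale (SE 0.07). Lamb2 was at 90.4, 101, 99.1 and 81.4 CPM in Ctrl and at 173, 156, 171 and 162 CPM in YAP5SA, a rise of 0.83 (SE 0.08, edgeR adjusted p = 6.85e-07). For both, every YAP5SA library lay above every Ctrl library. Lamb1 was at 124, 77.2, 84.6 and 88.8 CPM in Ctrl and at 101, 90.3, 96.0 and 69.7 CPM in YAP5SA. The groups overlapped, and its value of -0.07 was not called (edgeR adjusted p = 0.692). Its sign turned with library size scaling and without Ctrl replicate 1 or YAP5SA replicate 4.

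Lamc1, the gamma chain of most laminins, was at 81.6, 62.8, 66.6 and 72.6 CPM in Ctrl and at 130.2, 125, 127 and 126 CPM in YAP5SA. It rose by 0.84 on the log2 scale (SE 0.08, edgeR adjusted p = 8.30e-07), without overlap. Lamc3 was without a count in Ctrl and had 12 to 16 counts per YAP5SA library, 0.726, 0.831, 0.639 and 0.683 CPM, which with a floor of 3 counts over the group is at least 18.4-fold higher.

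**Figure D3:**
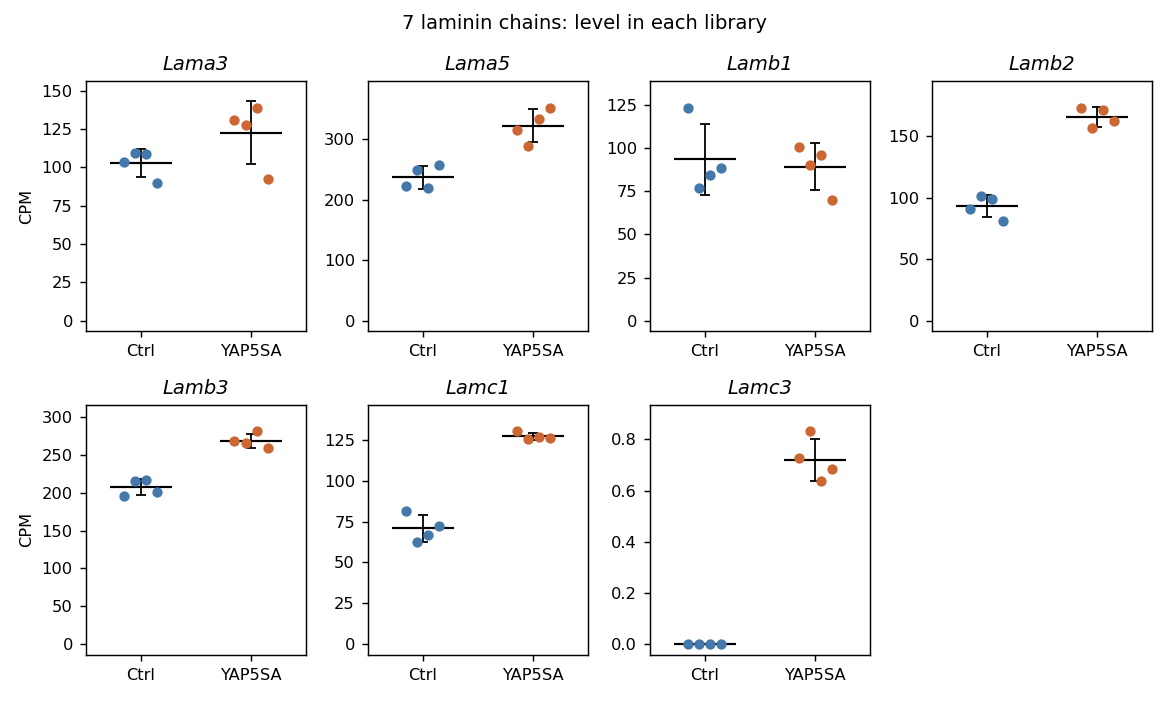
Level of 7 tested laminin genes in each library (y axis, CPM), with Ctrl in blue and YAP5SA in orange, lines at the group means and bars of 1 SD (n = 4). Lama3 and Lamb1 overlap between the groups, and the other 5 genes are higher in all YAP5SA libraries.

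Per kb of the longest transcript, Lamb2 made up 21.9% ± 1.67 of the beta chain level in Ctrl and 29.5% ± 0.969 in YAP5SA, and Lamb3 56.6% ± 3.25 and 55.1% ± 1.35. Lama5 made up 68.0% ± 3.15 and 70.8% ± 4.66 of the alpha chain level, a difference within the spread. With the median transcript length Lama5 was at 96.8% and 97.2%, and Lamb2 (54.2%) rather than Lamb3 (40.3%) led the beta chains in YAP5SA.

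The nidogen genes did not follow collagen IV. Nid1, which joins the laminin and collagen IV networks, was at 18.5, 12.5, 11.6 and 16.2 CPM in Ctrl and at 2.18, 1.2, 3.19 and 1.82 CPM in YAP5SA. It fell by 2.81 on the log2 scale (SE 0.25, edgeR adjusted p = 2.65e-07), the steepest fall of all matrix genes tested, with no overlap. The per-kb ratio of Col4a1 to Nid1 was 1.32 to 2.34 among the Ctrl libraries against 135 to 367 among those of YAP5SA. Nid2, its paralogue, was at 11.1, 12.8, 12 and 8.65 CPM in Ctrl and at 7.35, 6.18, 11.3 and 6.47 CPM in YAP5SA. Its fall of 0.51 on the log2 scale (edgeR adjusted p = 0.0328) came with overlapping groups. The Nid2 call ended without Ctrl replicate 2 (edgeR adjusted p = 0.0694) or 3 (0.0642), without YAP5SA replicate 1 (0.0742), 2 (0.0982) or 4 (0.0797), and with library size (0.158) or upper quartile (0.0560) scaling. Among the heparan sulfate proteoglycans Agrn rose from 372 ± 37.7 to 512 ± 17.6 CPM with no overlap (log2 fold change 0.46, SE 0.08, edgeR adjusted p = 1.67e-04). Hspg2 was at 43.0 ± 4.28 and 45.9 ± 5.04 CPM and was not called (edgeR adjusted p = 0.414), though it was called with library size scaling (0.27, edgeR adjusted p = 0.0321).

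Of 6 prolyl hydroxylase family genes tested 5 were higher, of 3 lysyl hydroxylases 3, and of 3 tested lysyl oxidase family and peroxidasin genes 3, and none of the 12 was called lower. Of all genes tested 33.1% were called higher and 31.3% lower. Summed levels went from 161 ± 14.4 to 543 ± 58.3 CPM for the prolyl hydroxylase family and from 47.0 ± 4.95 to 171 ± 16.8 CPM for the lysyl hydroxylases (SD, n = 4 each).

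P4ha1 and P4ha2 encode catalytic subunits of prolyl 4-hydroxylase, which makes the hydroxyproline that stabilises the collagen helix. P4ha1 was at 104, 131, 134 and 121 CPM in Ctrl and at 397, 406, 378 and 299 CPM in YAP5SA, a difference of 1.59 on the log2 scale (SE 0.11, edgeR adjusted p = 1.58e-08). P4ha2 was at 23.8, 27.3, 29.0 and 31.3 CPM in Ctrl and at 157, 149, 145 and 130.1 CPM in YAP5SA, a difference of 2.38 on the log2 scale (SE 0.10, edgeR adjusted p = 8.54e-11). Neither gene overlapped between the groups, and YAP5SA replicate 4 was the lowest of its group for both. P4ha3 had 1 count in Ctrl and 8 in YAP5SA and was not tested. P4ha2 made up 23.1% ± 1.72 of the per-kb level of the family in Ctrl and 34.2% ± 1.67 in YAP5SA, and with the median transcript length 47.9% and 61.4%.

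The prolyl 3-hydroxylase family was lower in level. P3h4, whose product has no known hydroxylase activity and works in a complex with P3h3 and a lysyl hydroxylase, was at 4.79, 4.79, 4.17 and 4.07 CPM in Ctrl and at 14.4, 14.1, 12.9 and 13.0 CPM in YAP5SA. It rose by 1.61 on the log2 scale (SE 0.13). P3h3 rose by 3.05 (SE 0.48), from 0.603 ± 0.569 to 5.36 ± 0.847 CPM, and was at 3.85 without Ctrl replicate 3. P3h1 rose by 0.77 (SE 0.22, edgeR adjusted p = 0.00740) with overlapping groups. P3h2, at 0.811 ± 0.419 and 0.856 ± 0.450 CPM, was not called (edgeR adjusted p = 0.838).

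Lysyl hydroxylases prepare lysines for crosslinks and for sugar attachment. Plod2, which hydroxylates the telopeptides of collagen, was at 15.7, 11.4, 15.8 and 12.6 CPM in Ctrl and at 114, 129, 111 and 85.7 CPM in YAP5SA. It rose by 2.98 on the log2 scale (SE 0.14, edgeR adjusted p = 3.48e-10). Plod3, which also transfers sugars to hydroxylysine, was at 27.3, 18.2, 23.6 and 21.4 CPM in Ctrl and at 46.9, 47.3, 44.9 and 47.6 CPM in YAP5SA, a rise of 1.04 (SE 0.11). Plod1 rose by 0.43 (SE 0.12), from 10.5 ± 1.18 to 14.2 ± 0.984 CPM. No YAP5SA library overlapped Ctrl for any of the 3 genes. Plod3 had the largest share of the family's per-kb level in Ctrl (51.8% ± 3.31, against 28.4% ± 1.81 for Plod2), and Plod2 in YAP5SA (62.6% ± 4.52, against 30.1% ± 3.29 for Plod3). With the median transcript length Plod3 also led in Ctrl (38.1%), there followed by Plod1 (31.8%) and Plod2 (30.1%), and Plod2 also led in YAP5SA (66.1%).

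Of the crosslinking enzymes, Loxl2, a lysyl oxidase that acts on collagen IV, was at 0.113, 0.296, 0.666 and 0 CPM in Ctrl and at 10.5, 11.4, 8.62 and 8.97 CPM in YAP5SA. Its log2 fold change was 5.04 (SE 0.41, edgeR adjusted p = 1.23e-07) and 6.13 without Ctrl replicate 3, which holds 16 of the 23 Ctrl counts. Pxdn, which forms the sulfilimine bonds of collagen IV, was at 14.3, 8.40, 6.79 and 9.65 CPM in Ctrl and at 25.7, 28.5, 30.4 and 19.0 CPM in YAP5SA. It rose by 1.41 on the log2 scale (SE 0.20, edgeR adjusted p = 3.20e-05) with no overlap. Loxl4, the most counted member of its family in both groups, rose by 0.37 (SE 0.10), from 44.3 ± 5.59 to 57.4 ± 4.20 CPM. Lox itself had 3 counts in Ctrl and 41 in YAP5SA and was not tested (ratio of scaled counts 12.8, exact 95% counting interval 4.07 to 64.4). Loxl1 (4 and 7 counts) and Loxl3 (22 and 46 counts) were not tested either.

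**Figure D4:**
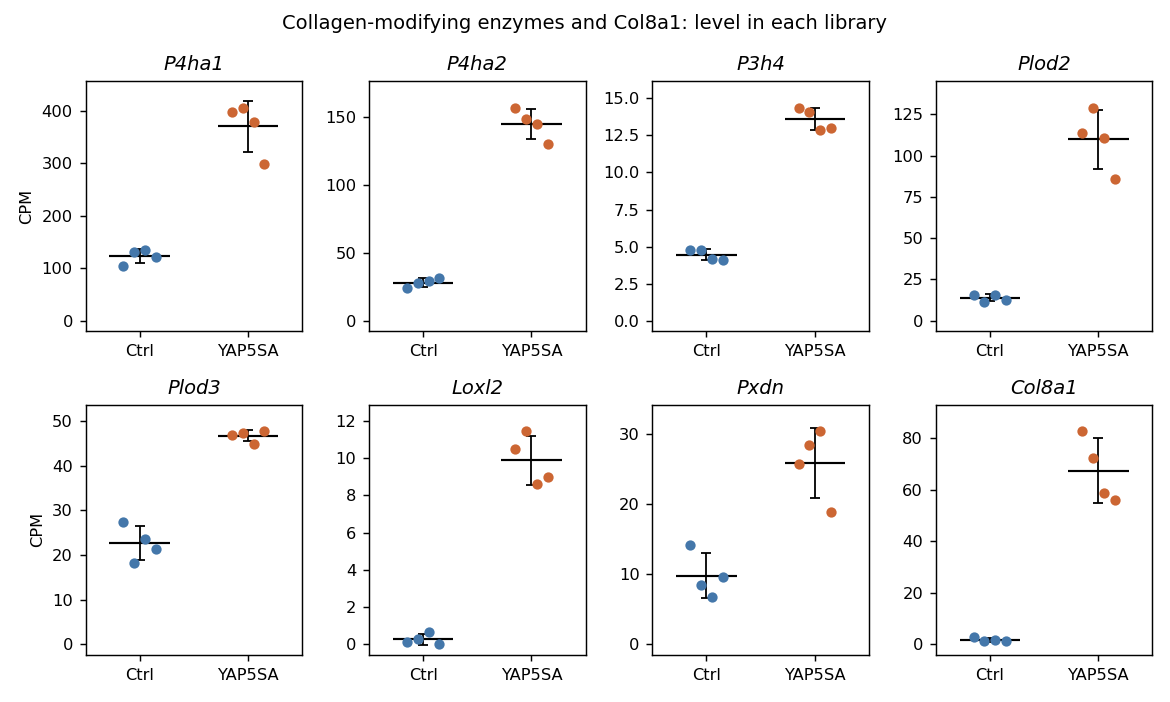
Level of 7 collagen-modifying enzymes or partners and of Col8a1 in each library (y axis, CPM), with Ctrl in blue and YAP5SA in orange, lines at the group means and bars of 1 SD (n = 4). All YAP5SA libraries lie above all Ctrl libraries for each of the 8 genes. The genes were plotted for being called higher by at least 1 on the log2 scale, so this separation follows in part from that choice. The groups did not overlap for 58.7% of all genes tested. YAP5SA replicate 4 is the lowest of its group for P4ha1, P4ha2, Plod2, Pxdn and Col8a1.

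**Figure D5:**
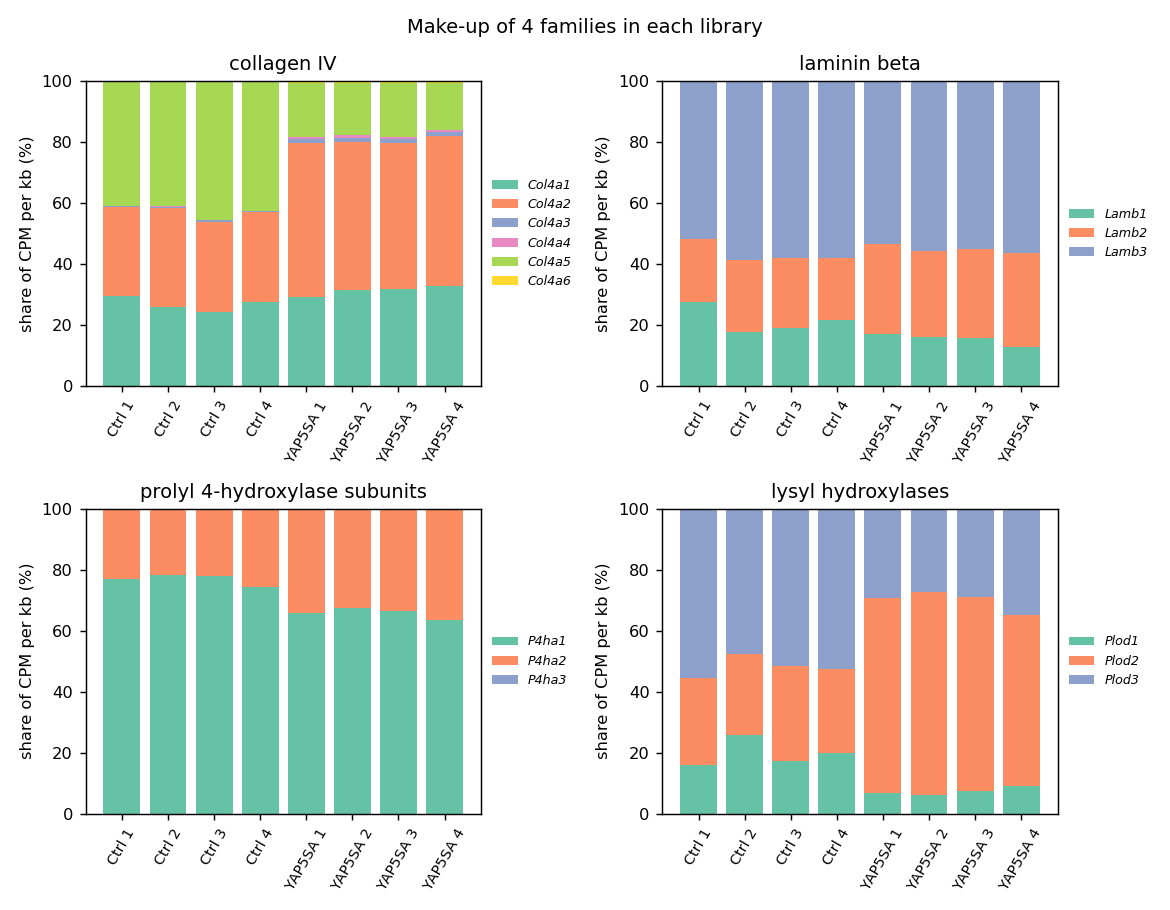
Share of each member (y axis, percent of the summed CPM per kb of the longest transcript) in collagen IV, the laminin beta chains, the prolyl 4-hydroxylase subunits and the lysyl hydroxylases, with 1 bar per library. Col4a5 gives way to Col4a2 in YAP5SA, P4ha2 gains on P4ha1, and Plod2 takes over from Plod3.

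Genes that work with collagen without belonging to these families were taken from lists. Of 30 genes of collagen folding, processing and export 20 were tested, 11 higher, 4 lower and 5 not called, with a median log2 fold change of 0.45. The share called, 75.0%, stood beside 64.5% of all genes tested. The largest rises were of the isomerase genes Fkbp7 (4.58, SE 0.25) and Fkbp14 (2.71, SE 0.27) and of Pcolce (4.33, SE 0.09), which enhances procollagen cleavage and went from 7.51 ± 0.830 to 151 ± 6.66 CPM. The largest falls were of Creb3l1, a transcription factor of secretory cells (-1.83, SE 0.16), and of the export receptor genes Mia2 (-1.27, SE 0.07) and Mia3 (-0.99, SE 0.08). Of 16 other basement membrane genes 11 were tested, 7 higher, 1 lower and 3 not called, or 72.7% called beside the same 64.5%, with a median of 1.10. Frem2 (4.29, SE 0.34) and Fras1 (2.56, SE 0.32), partners in one basement membrane complex, and Hmcn2 (3.28, SE 0.66) rose most, and Ntn4, a netrin that binds laminin, fell by 0.75 (SE 0.11) on the log2 scale.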

How the data were processed

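RNA of 8 organoid samples, 4 Ctrl and 4 YAP5SA, was sequenced, and the authors deposited raw counts per gene and library, not normalized. The tools named per the submitters' processing notes are HTSeq 0.6.1, HISAT2 2.0.1 and cutadapt, and the build is mm9. For the annotation and strand setting nothing is given in the sources used here, so reads where Col4a1 and Col4a2 overlap cannot be told apart with certainty. Groups come from the sample titles. In R 4.3.3, edgeR 4.0.16 was run on all genes that filterByExpr kept (minimum count 10, minimum total 15), with TMM scaling, the quasi-likelihood F test with no covariate, two-sided, and Benjamini-Hochberg adjustment over all genes tested, threshold 0.05. The standard error is the log2 fold change over the square root of F. The test was checked on simulated data in which only a small part of the genes was changed. That check does not cover data such as these, where most genes tested are called. Per-kb levels use the longest GENCODE M21 transcript, and 75 of 75 symbols matched. Without molecular identifiers, limits for 0 counts and exact intervals hold for counting error alone. No pair of replicates agreed within sampling noise (chi-square per degree of freedom 4.69 to 34.9). The members and lists were chosen with earlier results of these data known. Values in every library are given for tested laminin and collagen IV genes and for other called members with a log2 fold change of at least 1 in size and a mean of at least 5 CPM. A tested laminin gene and a marker gene are not reported here. Partner genes named are at most the 3 largest changes in each direction per list. Other members named were chosen after their values were seen. Alternatives were DESeq2 1.42.0, limma-voom (limma 3.58.1), scaling by library size, upper quartile or RLE, testing without a filter or with one of 1 CPM in at least 4 libraries, leaving out genes above 1% of a library, a replicate block, leaving out each library, and the median transcript length.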

Additional observations from a re-analysis of the deposited data

Results flagged for a closer look

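Each of the 39 tested matrix genes was looked at for a library far from the other 3 of its group, 78 groups in all, and 2 had one, where chance alone gives about 1 in 20. Plod1 was at 12.3 CPM in Ctrl replicate 2, against 9.81 to 10.2 CPM in the other Ctrl libraries. P3h3 was at 4.10 CPM in YAP5SA replicate 3, against 5.65 to 5.92 CPM in the other YAP5SA libraries.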

How the results depend on the processing

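The count of matrix genes higher in YAP5SA was 27 to 36 and that of genes lower was 3 to 6 over the alternatives other than leaving out a library, both within 1.5 times the reported 29 and 4. Leaving out each library gave 29 to 30 higher and 3 to 4 lower. Over all settings, 635 of the log2 fold changes of matrix genes kept their direction and their side of the threshold, 7 lost a call (all Nid2), 10 gained one (Lama3, Col5a1 and Hspg2) and 8 changed sign, each of a gene that was not called. Lamb1 was at 0.10 with library size scaling and at 0.069 and 0.03 without Ctrl replicate 1 and YAP5SA replicate 4. P3h2 was at -0.04, -0.12 and -0.31 without Ctrl replicate 1, Ctrl replicate 3 and YAP5SA replicate 4, and Col27a1 at -0.037 and -0.0025 without Ctrl replicate 2 and YAP5SA replicate 4. Over all left-out libraries Lamb1 ranged from -0.17 to 0.07, P3h2 from -0.31 to 0.49 and Col27a1 from -0.04 to 0.28. The cause was not tested. The median transcript length moved 70 of 78 per-kb levels by more than 1 SD of their group. A change of length multiplies each gene's level by a fixed factor, so these moves come from the annotation and not from the counts. Replicate numbers were not shown to pair the samples, and the labels give no pairing. The mean of its group was first taken from each library's log CPM, gene by gene. What remained correlated between same-numbered libraries at 0.07, 0.05, 0.09 and 0.28. By this measure 4 of 8 libraries correlated best with their own number. With the replicate block 30 matrix genes were higher and 5 lower, of all genes 9174 were called in place of 8907, and Lama3 (0.24, edgeR adjusted p = 0.0100) and Col5a1 (-1.04, edgeR adjusted p = 0.0137) were called. Counts limit what can be said of the 36 untested members.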

Other observations

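Of 16 receptors for laminin and collagen 15 were tested, with 7 higher in YAP5SA, 5 lower, 3 not called and a median log2 fold change of 0.00. The share called was 80.0%, beside 64.5% of all genes tested, of which 33.1% were higher and 31.3% lower. Bcam, a receptor for the laminin alpha chain of Lama5, rose from 103 ± 4.44 to 682 ± 9.56 CPM (SD, n = 4 each; log2 fold change 2.73, SE 0.07). Itga3, a laminin-binding integrin subunit, rose from 247 ± 29.6 to 771 ± 62.0 CPM (1.64, SE 0.09). The collagen receptor kinase Ddr2 rose from 0.228 ± 0.102 to 0.680 ± 0.131 CPM (1.52, SE 0.43). Itga1, a subunit of a collagen IV receptor, fell by 3.31 on the log2 scale, from 23.6 ± 4.40 to 2.40 ± 0.703 CPM. Itga7 fell by 1.58, and Itgb4, which with Itga6 forms the hemidesmosome integrin that binds the anchoring laminin, fell by 1.2, from 237 ± 22.3 to 103 ± 13.4 CPM.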
